A study of Saccharomyces cerevisiae with 12 samples.

Results

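The 240 longest nuclear protein-coding genes of budding yeast, those with an annotated coding length of at least 4000 bp, were examined for where along their length RNA polymerase II (Pol II) peaks lay. They were chosen by length alone from 6002 nuclear protein-coding genes of the R64 annotation. Each gene was divided into 10 equal segments, numbered from its 5′ end, and the percent of each segment that lay under a peak was taken for dbp2Δ and for wild-type cells. Just outside the limit, SPT7 (3999 bp) and SSK22 (3996 bp) had no peak in either strain. Just inside it, PDR18 (4002 bp) had none, SEC3 (4011 bp) was covered over 0% in dbp2Δ and 0.449% in wild type, and POM152 (4014 bp) over 0% in dbp2Δ and 1.35% in wild type.

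A polymerase that starts at the promoter of a long gene must stay on the template through the whole gene body, so the spread of Pol II over such a gene reads out how evenly polymerases are found from the start to the end of the transcript. Chromatin immunoprecipitation (ChIP) of a Pol II subunit does not tell moving from stalled polymerases, nor the strand they read. Dbp2 is a DEAD-box RNA helicase, the yeast relative of mammalian DDX5, that unwinds RNA duplexes and acts on RNA while it is being made. Peaks that lie near a gene's end can belong to a neighbour, since yeast genes are closely packed and convergent genes share their 3′ flanks.

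The dbp2Δ cells carried a KanMx6 cassette in place of DBP2, and the wild-type cells an intact DBP2. Both were MATa his3Δ1 leu2Δ0 met15Δ0 ura3Δ0 and both carried a 3XFLAG tag on Rpb3, a core subunit of Pol II, so the wild type is itself a tagged strain. Cells grown in rich glucose medium were fixed with formaldehyde, and the tagged polymerase was precipitated with an anti-FLAG antibody. Each strain gave 3 immunoprecipitates and 3 inputs, 12 libraries in all, and the authors deposited a single peak list for each strain, made after pooling its libraries.

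The dbp2Δ list held 1628 peaks and the wild-type list 1642. The pooled immunoprecipitates held 4030024 fragments in dbp2Δ and 3648848 in wild type after duplicates were removed, a ratio of 1.10, and the pooled inputs 4748970 in dbp2Δ and 5106431 in wild type. The shortest peak was 290 bp in dbp2Δ and 260 bp in wild type, and the shortest gap between neighbouring peaks was 291 bp in dbp2Δ and 261 bp in wild type. Gaps of up to 300 bp numbered 9 in dbp2Δ and 66 in wild type. A deeper library and a wider joining distance thus came with dbp2Δ, and their part in the differences between the strains was not tested. With 1 pooled list per strain there was no spread between replicates, so no difference between the strains was tested, and every difference below describes these lists. As a check of the labels, DBP2 (YNL112W), at 413639 to 416281 on chromosome XIV, was covered over 0% in dbp2Δ and 100% in wild type.

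Most long genes had little or no Pol II peak. A peak touched 101 of the 240 genes (42.1%) in dbp2Δ and 84 (35%) in wild type, beside 42.4% of all nuclear protein-coding genes in dbp2Δ and 38.8% in wild type. The peaks touched 76 genes in both strains, beside 33.9% of all genes. They touched 25 genes (10.4%) in dbp2Δ only and 8 (3.33%) in wild type only, beside 8.51% of all genes in dbp2Δ only and 4.93% in wild type only. A peak in either strain touched 109 long genes, beside 47.3% of all genes, and 131 had none. Of the 5 longest genes, DYN1 (12279 bp, the dynein heavy chain), TOM1 (9807 bp, a ubiquitin ligase) and VPS13 (9435 bp, a lipid transfer protein) were among these. TRA1 (11235 bp, a shared subunit of the SAGA and NuA4 histone acetyltransferases) was covered over 5.77% in dbp2Δ and 0% in wild type, and REA1 (14733 bp), an AAA ATPase that remodels the large ribosomal subunit precursor, over 93.9% in dbp2Δ and 2.87% in wild type.

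At least 50% of the length was covered in 45 long genes in dbp2Δ and 40 in wild type. This was 18.75% of them in dbp2Δ and 16.7% in wild type, beside 20.6% of all genes in dbp2Δ and 19.9% in wild type. Both strains shared 39 of these genes, where the share of all genes covered in both was 16.9%. A further 6 long genes passed in dbp2Δ only and 1 in wild type only, beside 3.7% of all genes in dbp2Δ only and 3% in wild type only. Peaks covered the whole gene in 27 of the 240 in dbp2Δ and 22 in wild type, beside 856 of all 6002 genes in dbp2Δ and 866 in wild type. At the other extreme, 41 genes in dbp2Δ and 30 in wild type had a peak over less than 10% of their length. Among all 6002 genes these were 384 in dbp2Δ and 373 in wild type, a smaller share. A peak end of a given size is a smaller part of a long gene, so these shares are not on equal terms.

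A group of 46 unnamed members made up much of the covered length. These genes have only a systematic name in the annotation and a length that is no multiple of 3, and 24 of them share a length of 5269 bp. Equal lengths are what near-identical copies would show. Their sequences were not analysed here, and how reads with several matches were placed is not given in the sources used here, so the values of single members of this group are uncertain. The mean covered length of the 46 was 57.7% in dbp2Δ and 55.6% in wild type. All 24 genes of 5269 bp were touched by a peak in both strains, with a mean of 92.4% covered in dbp2Δ and 89.6% in wild type. Of the 10 genes of 5314 bp, 3 in dbp2Δ and 4 in wild type were touched, with a mean of 2.74% covered in dbp2Δ and 3.78% in wild type. The longest peak of either list, 12029 bp in dbp2Δ and 12014 bp in wild type, spanned the neighbouring members YJR027W and YJR029W.

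The 8 YRF1 genes, which encode helicases of the subtelomeric Y′ elements and are near-identical copies, had a mean of 4.43% covered in dbp2Δ and 0% in wild type. In dbp2Δ, peaks touched YRF1-1, YRF1-2, YRF1-5 and YRF1-8. The peak nearest the 5′ end of each was 466 bp long in YRF1-1, 397 bp in YRF1-2, 375 bp in YRF1-5 and 293 bp in YRF1-8. In wild type 0 of the 8 had a peak. The highest summit inside a YRF1 gene had a fold enrichment of 1.37, close to the lowest fold of any peak in the dbp2Δ list, 1.24.

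Leaving out the 46 unnamed and 8 YRF1 genes left 186 genes, with a mean of 10.8% covered in dbp2Δ and 8.21% in wild type. Among them, 65 genes (34.9%) in dbp2Δ and 51 (27.4%) in wild type were touched by a peak, beside 42.4% of all genes in dbp2Δ and 38.8% in wild type. At least 50% was covered in 18 (9.68%) in dbp2Δ and 14 (7.53%) in wild type, beside 20.6% of all genes in dbp2Δ and 19.9% in wild type. Genes of 2000 to under 4000 bp, 1086 in number, had a mean of 14.3% covered in dbp2Δ and 11.7% in wild type.

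Along the gene body, coverage was nearly level and was higher in the last segment. Over all 240 genes in dbp2Δ, the mean covered percent of the segments from the 5′ end was 19.2, 19.2, 17.9, 19.1, 20.04, 18.7, 18.8, 18.6, 18.1 and 25.9. In wild type the segments had 18.3, 16.3, 16.2, 17.6, 16.8, 16.0, 16.2, 15.1, 15.7 and 22.0%. Each segment was thus higher in dbp2Δ than in wild type, and in either strain the last segment was the highest. The last segment had 1.38 times the mean of segments 2 to 9 in dbp2Δ and 1.35 times in wild type. Counting only peaks with their summit inside the gene, the last segment was covered over 11.03% in dbp2Δ and 10.8% in wild type, beside 10.7% in dbp2Δ and 9.99% in wild type for segments 2 to 9.

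In the 186 genes without the unnamed and YRF1 members, the last segment stood further out, at 18.0% covered in dbp2Δ and 13.3% in wild type. This was 1.82 times the mean of segments 2 to 9 in each strain. The first segment differed less between the strains, at 10.8% in dbp2Δ and 10.5% in wild type, and was 1.10 times the mean of segments 2 to 9 in dbp2Δ and 1.44 times in wild type. In genes of 2000 to under 4000 bp, the last segment was 2.08 times the mean of segments 2 to 9 in dbp2Δ and 2.16 times in wild type, and the first segment 1.02 times in dbp2Δ and 1.61 times in wild type. In the unnamed genes the profile was flatter, with the last segment at 1.06 times segments 2 to 9 in dbp2Δ and 1.10 times in wild type.

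**Figure D1:**
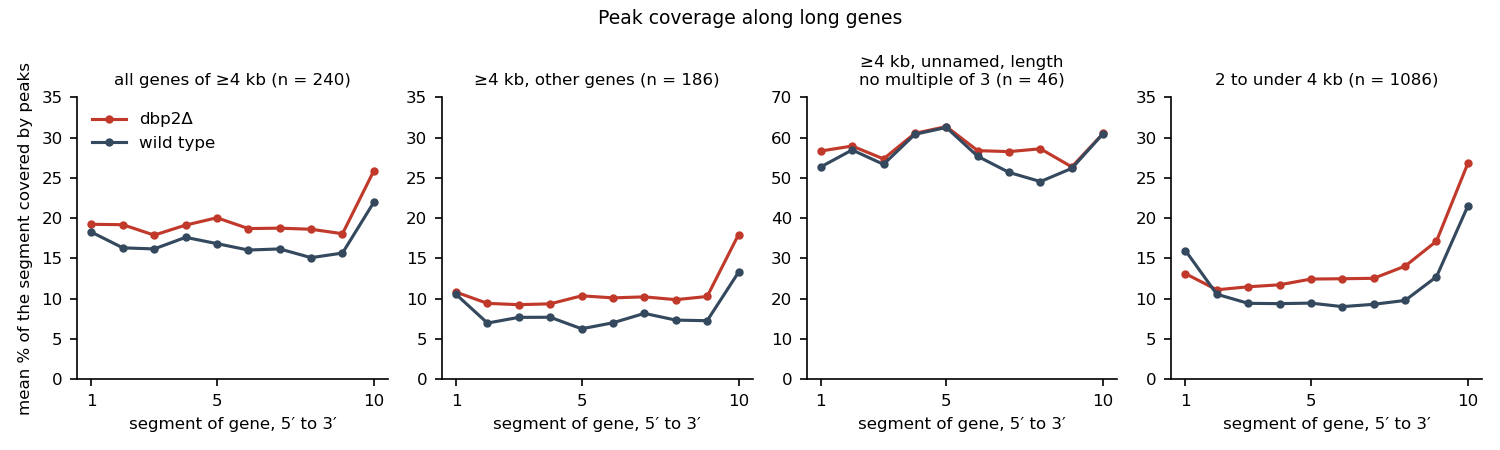
Mean percent of each segment of the gene covered by peaks (y axis; the unnamed genes have their own scale) against the segment counted from the 5′ end (x axis), for dbp2Δ and wild type in 4 sets of genes; each point is a mean over the genes of the set, with no replicates. The last segment is the highest in the sets of all long genes (25.9% in dbp2Δ and 22.0% in wild type), of the other 186 long genes and of genes of 2000 to under 4000 bp, and the unnamed genes lie between 49.1% and 62.8% throughout.

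Gene by gene, the 5 segments nearest the 3′ end were covered more than the 5 nearest the 5′ end in 51 long genes in dbp2Δ and 39 in wild type. These were 21.25% of the long genes in dbp2Δ and 16.25% in wild type, close to the 21.9% of all genes in dbp2Δ and 16% in wild type. The reverse held in 23 genes (9.58%) in each strain, beside 6.26% of all genes in dbp2Δ and 8.36% in wild type, and the 5′ and 3′ sides were covered equally in 27 genes in dbp2Δ and 22 in wild type. The highest summit within a gene fell in the last segment in 12 genes in dbp2Δ and 11 in wild type, of 52 genes in dbp2Δ and 48 in wild type with a summit inside. In the first segment it fell in 6 genes in dbp2Δ and 5 in wild type. Among all genes with a summit inside, it fell in the last segment in 321 of 887 in dbp2Δ and 199 of 959 in wild type. For the first segment these counts were 140 in dbp2Δ and 378 in wild type. A further 49 of 101 touched genes in dbp2Δ and 36 of 84 in wild type held no summit at all, so that the highest point of their peaks lay outside the gene. Among all genes this was so for 1658 of 2545 touched in dbp2Δ and 1371 of 2330 in wild type, a larger share in each strain.

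The touched genes fell into a few arrangements. Signal was called continuous when 1 peak covered at least 80% of the gene. It was called separate when different peaks touched the first 3 and the last 3 segments and none touched both. A gene counted as having signal at one end when its peaks touched the first 3 or the last 3 segments but not both, whether or not they touched the segments between.

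Continuous signal was found in 32 long genes in dbp2Δ and 25 in wild type, beside 16.4% of all genes in dbp2Δ and 15.9% in wild type. Separate 5′ and 3′ peaks were found in 20 long genes in dbp2Δ and 27 in wild type, beside 2.73% of all genes in dbp2Δ and 4.95% in wild type. A gene shorter than a few peak lengths has little room for separate peaks, so these percentages are not on equal terms. A single peak that touched both the first 3 and the last 3 segments but covered less than 80% was rare, with 4 long genes in dbp2Δ and 1 in wild type, beside 0.983% of all genes in dbp2Δ and 0.566% in wild type.

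Peaks at the 3′ end only were the most common arrangement in dbp2Δ, as they were among all genes. They were found in 40 long genes in dbp2Δ and 23 in wild type, beside 17.8% of all genes in dbp2Δ and 12% in wild type. Of the touched long genes this was 39.6% in dbp2Δ and 27.4% in wild type. Among all touched genes the shares were 42.1% in dbp2Δ and 31.0% in wild type. Peaks at the 5′ end only were found in 5 long genes in dbp2Δ and 8 in wild type, beside 4.38% of all genes in dbp2Δ and 5.35% in wild type. Of the long genes, 0 in either strain had a peak in the middle only, beside 0.0167% of all genes in dbp2Δ and 0% in wild type.

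**Figure D2:**
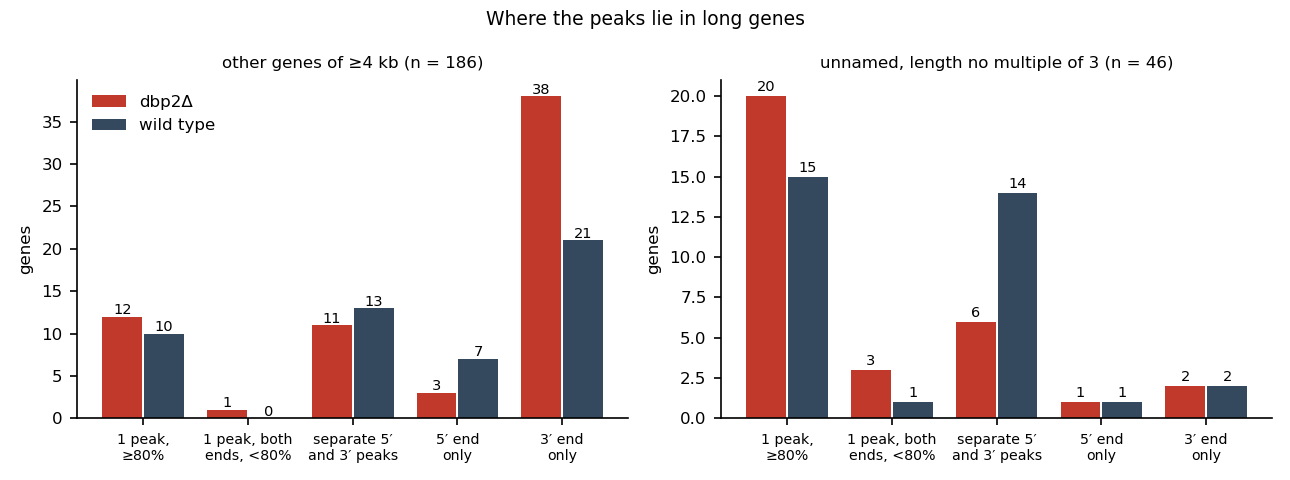
Number of long genes (y axis) in each arrangement of peaks (x axis) in dbp2Δ and wild type, for the 186 other genes on the left and the 46 unnamed genes on the right; bars are counts from 1 pooled peak list per strain. Of the 186 genes, 38 in dbp2Δ and 21 in wild type had a peak at the 3′ end only, while the unnamed genes were mostly continuous or separate.

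Peaks per touched gene averaged 1.48 in dbp2Δ (149 peaks in all) and 1.61 in wild type (135 peaks). At least 2 peaks were found in 30 genes in dbp2Δ, 29.7% of those touched, and in 31 genes in wild type, 36.9% of those touched. In genes of 2000 to under 4000 bp the share was 17.0% in dbp2Δ and 25% in wild type. GCN1 in dbp2Δ and URA2 in wild type had the most peaks, 6 each.

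In both strains 19 long genes were covered from end to end by 1 peak, 12 of them unnamed. The other 7 were FAS1 and FAS2, which encode the beta and alpha subunits of fatty acid synthase, FKS1, a catalytic subunit of beta-1,3-glucan synthase, PDR5, a drug efflux pump, RPA190, the largest subunit of RNA polymerase I, and RRP5 and UTP10, factors of ribosomal RNA processing. These peaks also ran past the genes, and the peak over FAS1 (YKL182W, chromosome XI, 100671 to 106826) had 4441 bp outside it in dbp2Δ and 4283 bp in wild type. RPO21, the gene of the largest Pol II subunit itself, was covered over 100% in dbp2Δ and 93.2% in wild type, and ADE6, an enzyme of purine synthesis, over 90.4% in dbp2Δ and 100% in wild type.

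The strains shared 24 continuous genes, beside 13.2% of all genes. A further 8 (3.33%) were continuous in dbp2Δ and separate in wild type, and 1 (0.417%), ACC1, was separate in dbp2Δ and continuous in wild type. Among all genes the same lean was found, with 1.58% continuous in dbp2Δ and separate in wild type and 0.317% the reverse. Of the 8, 5 were unnamed genes whose peaks in wild type were split by gaps of 309 to 405 bp. Among these, YMR045C was also split in dbp2Δ, by a gap of 568 bp beside 318 bp in wild type. It was covered over 89.2% in dbp2Δ and 94.0% in wild type. The other 3 of the 8 were HAP1, UTP20 and URA2. UTP20 (YBL004W, chromosome II, 227636 to 235117), a component of the small subunit processome, lay under 1 peak in dbp2Δ and under 4 peaks over 78.6% of its length in wild type, with a widest gap of 728 bp. URA2 (YJL130C, chromosome X, 165723 to 172367), which encodes the first steps of pyrimidine synthesis, had 2 peaks over 95.2% in dbp2Δ with a gap of 322 bp, and 6 peaks over 56.1% in wild type with a widest gap of 913 bp. HAP1 (YLR256W, chromosome XII, 646415 to 650923), a heme-responsive transcription factor, was covered over 100% in dbp2Δ and 53.2% in wild type. In both strains the peak at its 3′ end ran on past the gene, with 6350 bp outside it in dbp2Δ and 5939 bp in wild type, and its summit lay outside the gene. Its same-strand neighbour YLR256W-A, 193 bp downstream, was covered over 100% in both strains, with 1323 bp under the wild-type peak. The same 1323 bp were covered in YLR157C-A and YOR142W-A, which adjoin unnamed members. Uncertain read placement may thus also bear on the HAP1 peak, which was not tested.

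When peaks were joined across gaps of up to 500 bp, a setting chosen after the data had been seen, 30 genes were continuous in both strains, 5 were continuous in dbp2Δ and separate in wild type, and 2 the reverse. Among genes with separate peaks, the widest uncovered gap had a median of 1411.5 bp in dbp2Δ (318 to 8044 bp) and 1148 bp in wild type (304 to 5720 bp). Separate peaks could still cover most of a gene: at least 50% was covered in 8 of the 20 genes in dbp2Δ and 14 of the 27 in wild type, and less than 20% in 8 genes in dbp2Δ and 9 in wild type.

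**Figure D3:**
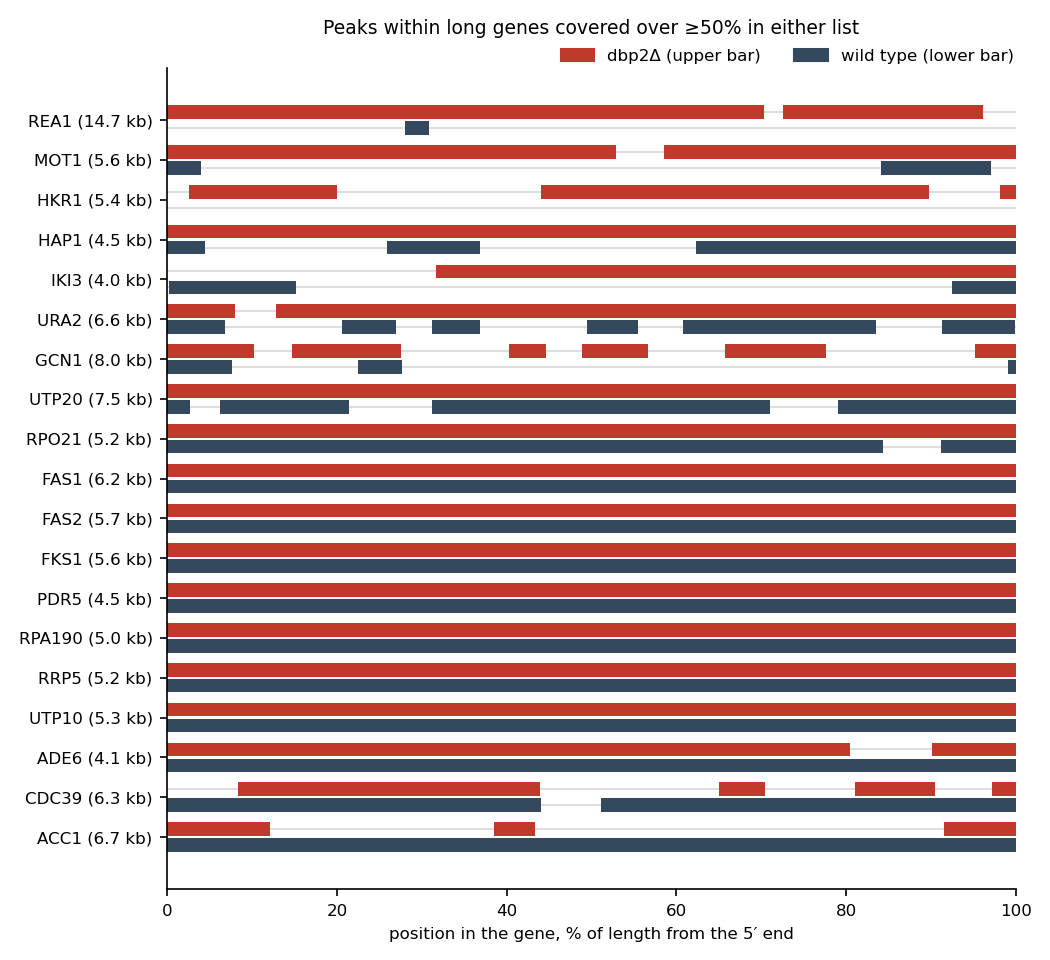
Peaks within the 19 genes, other than the unnamed ones, that were covered over at least 50% in either strain; the x axis is the position along the gene as a percent of its length, 5′ end at 0, with the upper bar of each pair for dbp2Δ and the lower for wild type. REA1 is covered over 93.9% in dbp2Δ and 2.87% in wild type, 7 genes are filled in both strains, and ACC1 is covered over 25.4% in dbp2Δ and 100% in wild type.

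Between the strains, 64 long genes had a higher covered percent in dbp2Δ and 26 a lower one, beside 23% higher and 12.8% lower among all genes. The values were equal in 19 touched genes. The mean difference, dbp2Δ minus wild type, was 2.54 percentage points over the 240 genes, and the median over the touched genes was 1.30 points. The mean difference was 2.57 points in genes of 2000 to under 4000 bp and 1.38 points over all genes. Counting only peaks with their summit inside the gene brought the means of the 240 genes in the strains closer together. A difference of at least 25 points was found in 10 genes that were higher in dbp2Δ and 3 that were lower, beside 6.2% higher and 4.48% lower among all genes. All 13 belonged to the 186 genes other than the unnamed and YRF1 genes.

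The widest difference was in REA1 (YLR106C, chromosome XII, 349006 to 363738). In dbp2Δ, 1 peak covered its first 10360 bp and another 3470 bp after a gap of 329 bp. In wild type its single peak was 423 bp long and lay 4122 to 4544 bp from the start. Leaving REA1 out brought the mean difference to 2.17 points. MOT1 (YPL082C, chromosome XVI, 398480 to 404083), an ATPase that removes TATA-binding protein from DNA, was covered over 94.3% in dbp2Δ and 16.9% in wild type. Its peaks in dbp2Δ left a gap of 318 bp, and those in wild type, near the start and the end of the gene, a gap of 4491 bp.

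HKR1 (YDR420W, chromosome IV, 1306267 to 1311675), a mucin-like sensor at the cell surface, had 3 peaks over 64.9% of its length in dbp2Δ and none in wild type. YBT1, a vacuolar ABC transporter of bile acids, had 3 peaks over 44.6% in dbp2Δ and none in wild type. IKI3, the largest subunit of Elongator, was covered over 68.4% in dbp2Δ, from segment 4 to its end, and over 22.6% in wild type, at both ends. RPO31, the largest subunit of RNA polymerase III, was covered over 49.6% in dbp2Δ and 7.14% in wild type. GCN1, which activates the kinase Gcn2 in amino acid starvation, had 6 peaks over 51.8% in dbp2Δ and 3 peaks over 13.8% in wild type. URB1, a factor of large ribosomal subunit synthesis, was covered over 36.2% in dbp2Δ and 10.7% in wild type.

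The opposite difference was widest in ACC1 (YNR016C, chromosome XIV, 654673 to 661374), acetyl-CoA carboxylase, which catalyses the first step of fatty acid synthesis. It had 3 peaks over 25.4% of its length in dbp2Δ and a single peak over all 6702 bp in wild type. That wild-type peak had 4158 bp outside ACC1 and its summit lay outside the gene, while 2 of the 3 dbp2Δ peaks had their summit inside. CDC39, the scaffold of the Ccr4-Not complex, was covered over 53.2% in dbp2Δ and 92.8% in wild type, and XRN1, the cytoplasmic 5′ to 3′ exoribonuclease, over 15.4% in dbp2Δ and 40.7% in wild type. SNQ2, a multidrug ABC transporter, had no peak in dbp2Δ and 3 over 15.5% in wild type.

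Several of these differences rested on peaks of less than 2-fold enrichment. Restricted to the 843 peaks in dbp2Δ and 815 in wild type with an enrichment of 2-fold or more, 6 genes were higher by at least 25 points in dbp2Δ and 1 was lower. Of the 10 genes above, 2 remained, REA1 at 70.3 points and HAP1 at 62.3 points, and ACC1 was the one lower gene, at −91.6 points. The other 4 of the 6 were not among the 10: UTP20, covered over 100% in dbp2Δ and 20.9% in wild type by such peaks, and the unnamed genes YGR161C-D, YDR316W-B and YOR142W-B. MOT1, HKR1, IKI3, YBT1, RPO31 and CDC39 had no such peak in either strain. URB1 differed by 18.9 points, URA2 by 1.19 points and GCN1 by 2.61 points, and XRN1 changed sign, at 7.24 points. The peak at the 3′ end of XRN1 had a fold of 2.02 in dbp2Δ and 1.91 in wild type. Each peak has a single fold value, and its summit can lie outside the gene. This was so for these XRN1 peaks, the wild-type peak over ACC1, the dbp2Δ peaks over HAP1 and UTP20, and their wild-type 3′ peaks. It was also so for the dbp2Δ peak at the 3′ end of ACC1 and the dbp2Δ peaks of YGR161C-D. The 5′ peaks of URA2 and GCN1 had their summit outside the gene in both strains. For all these peaks the fold limit does not measure enrichment inside the gene. The strain differences of single genes, and the counts of genes past 25 points, were not recomputed with peaks whose summit lay inside the gene.

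**Figure D4:**
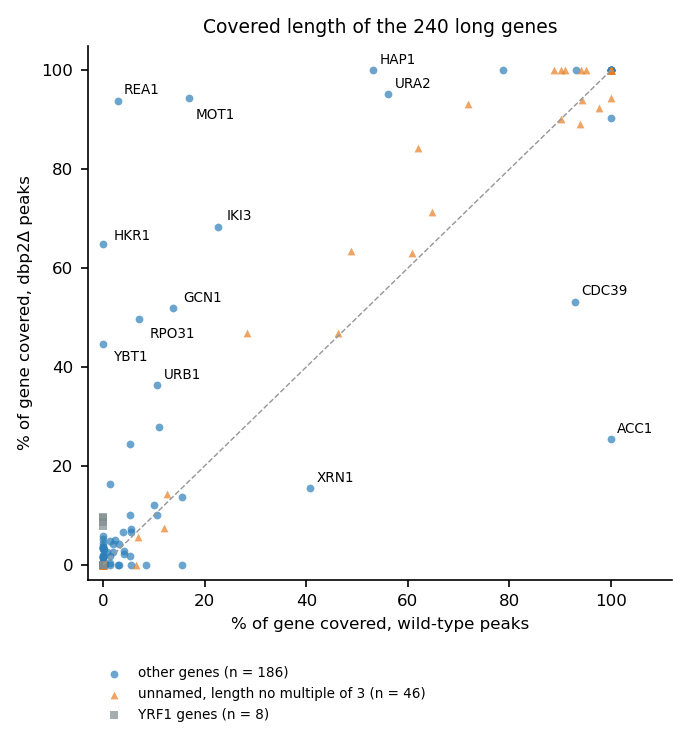
Percent of each long gene covered by peaks in dbp2Δ (y axis) against wild type (x axis); each point is 1 of 240 genes, the dashed line marks equal values, and genes that differ by at least 25 points are named. The 10 genes higher in dbp2Δ lie above the line at the left and top, ACC1, CDC39 and XRN1 lie below it, and the unnamed genes lie closer to the line, within 22.3 points of it.

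**Figure D5:**
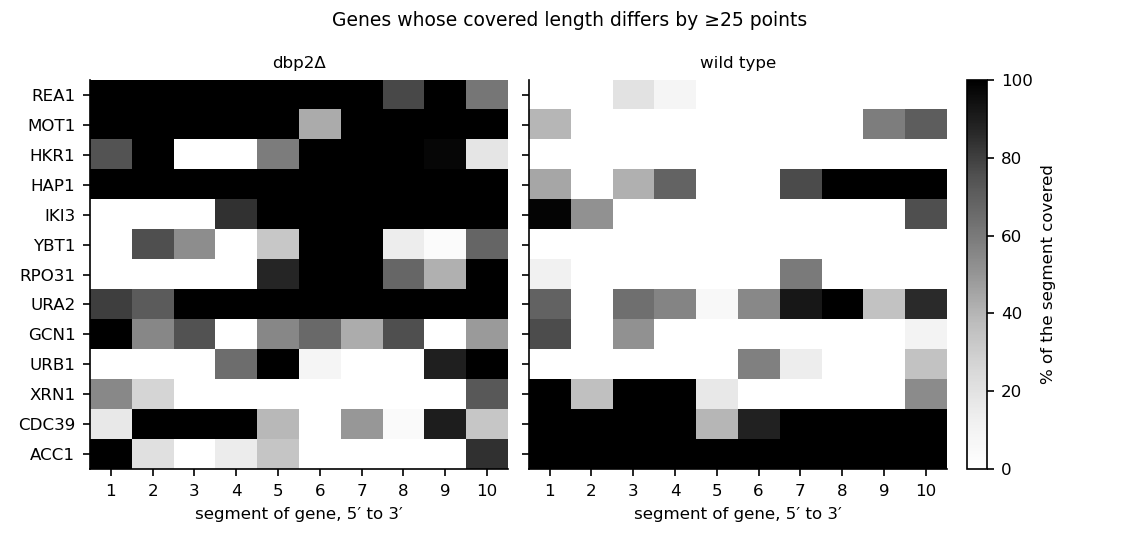
Percent of each segment covered (grey scale, 0 to 100%) in the 13 genes that differ by at least 25 points, dbp2Δ on the left and wild type on the right, with segments from the 5′ end on the x axis. In dbp2Δ the filled segments of IKI3, RPO31 and URB1 begin in segment 4 or 5, and in wild type ACC1 is filled in all 10 segments.

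Of the genes covered over at least 50%, 27 of 45 in dbp2Δ and 26 of 40 in wild type were unnamed and in no function list, and 16 in dbp2Δ and 13 in wild type were in a list. All 5 listed genes of ribosome biogenesis were touched in both strains, with a median of 100% covered in dbp2Δ and 78.6% in wild type, where the median over all 240 genes was 0% in each. Of 10 metabolic enzymes, 8 in dbp2Δ and 7 in wild type were touched, and 4 in dbp2Δ and 5 in wild type were covered over at least 50%. Of all genes, 42.4% in dbp2Δ and 38.8% in wild type were touched, and 20.6% in dbp2Δ and 19.9% in wild type were covered that far. LYS2, of lysine synthesis, and HFA1, the mitochondrial acetyl-CoA carboxylase, had no peak. GLT1, glutamate synthase, and ARO1, the pentafunctional enzyme of aromatic amino acid synthesis, were covered at the 5′ end by a peak in both strains.

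Of 19 genes for RNA polymerase subunits, elongation factors and chromatin regulators, 11 were touched in dbp2Δ and 7 in wild type. For this list and those that follow, the share of all genes touched was 42.4% in dbp2Δ and 38.8% in wild type. The share of all genes covered over at least 50% was 20.6% in dbp2Δ and 19.9% in wild type. The 4 covered over at least 50% in dbp2Δ were RPO21, RPA190, MOT1 and CDC39, and wild type had 3 of these, without MOT1. The elongation factor gene SPT6 was covered over 4.16% in dbp2Δ and 1.95% in wild type, and SIN3, the scaffold of the Rpd3 histone deacetylase, over 4.29% in dbp2Δ and 0% in wild type. The chromatin remodellers SNF2, STH1 and SWR1 had no peak. Of 9 genes of RNA processing, decay and translation control, 5 in dbp2Δ and 4 in wild type were touched, and the splicing factor gene PRP8 and the helicase gene SEN1 had no peak. Of 6 cell wall and surface genes, 3 in dbp2Δ and 2 in wild type were touched.

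Other groups had few genes covered over at least 50%, and their touched genes can be read against the 42.4% of all genes touched in dbp2Δ and 38.8% in wild type. Of 18 ABC transporters and flippases, 3 in dbp2Δ and 2 in wild type were touched, and PDR5 alone among them reached 50% in either strain. Of 16 genes of TOR, PIK-related and Ras signalling, 3 in dbp2Δ and 4 in wild type were touched. In the TORC2 subunit gene TSC11, 515 bp at the 3′ end in dbp2Δ and 427 bp in wild type lay under a peak. Of 14 cytoskeleton and polarity genes, 7 in dbp2Δ and 6 in wild type were touched. BUD4, of bud site selection, was covered over 24.5% in dbp2Δ and 5.36% in wild type. Of 8 nuclear pore and transport genes, 2 in dbp2Δ and 4 in wild type were touched, NUP188 with 5 peaks over 27.9% in dbp2Δ and 2 peaks over 10.9% in wild type. Of 14 genes of membrane traffic, 2 in dbp2Δ and 1 in wild type were touched, of 6 genes of protein degradation 2 in dbp2Δ and 1 in wild type, and of 10 genes of DNA replication and repair 1 in dbp2Δ and 0 in wild type. That gene, SGS1, a RecQ helicase, shared a single base pair with a peak of 3589 bp over its neighbour GCV2, which was covered over 100% in dbp2Δ and 0% in wild type.

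Peaks at the 3′ end only lay mostly outside the genes. Of the 40 such genes in dbp2Δ, 39 had a peak that ran past the 3′ end, and of the 23 in wild type, 21 did. The part of the peak inside the gene had a median of 176.5 bp in dbp2Δ (1 to 2769 bp) and 153 bp in wild type (18 to 427 bp). The summit lay inside the gene in 10 of the 40 genes in dbp2Δ and 7 of the 23 in wild type. In 31 of 42 such peaks in dbp2Δ and 19 of 24 in wild type, less than 50% of the peak was in the long gene.

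The neighbour under the same peak was usually on the opposite strand. Among the genes whose peak ran past the 3′ end, it was on the opposite strand in 32 genes in dbp2Δ and 13 in wild type and on the same strand in 1 in dbp2Δ and 3 in wild type, and the peak reached no neighbour in 6 in dbp2Δ and 5 in wild type. PMD1 shows the pattern: its end lay under a peak of 2186 bp in dbp2Δ and 2120 bp in wild type over the ribosomal protein gene RPS26B, with 7.28% of PMD1 covered in dbp2Δ and 5.38% in wild type.

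The next protein-coding gene downstream was convergent for 35 of 39 genes with 3′ peaks only in dbp2Δ (89.7%) and for 18 of 23 in wild type (78.3%). This was so for 58 of 126 long genes with no peak in either strain (46.0%) and for 125 of all 230 long genes with such a neighbour (54.3%). Pol II ChIP carries no strand, so signal of the long gene and of its convergent neighbour cannot be told apart at these ends.

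A 3′ peak in dbp2Δ and no peak in wild type was the arrangement of 17 genes (7.08%), and the reverse of 4 (1.67%), close to the 6.21% and the reverse 2.13% of all genes. Of the 16 of the 17 with a downstream protein-coding neighbour, 15 faced a convergent one. In 7 of the 16 a wild-type peak lay within 300 bp past the gene's end without reaching it. A wild-type peak began within 300 bp past the end of 21 of all 230 long genes with such a neighbour. The same held for 12 of the 126 with no peak in either strain. The wild-type peak began 2 bp past the end of YOR1, 31 bp past IQG1, 59 bp past THO2, 96 bp past YSP2, 122 bp past MYO1, 132 bp past DOP1 and 158 bp past CHC1. In these 7 genes the lists differed in whether a peak beside the gene's end crossed it. In ECM29, a proteasome-binding protein gene, 29 bp lay under a dbp2Δ peak over OCA5, which was covered over 61.5% in dbp2Δ and 0% in wild type.

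At the 5′ end the few genes included ARO1, where the peak reached 477 bp into the gene in dbp2Δ and 507 bp in wild type, and the chromatin remodeller gene CHD1, where it reached 127 bp in dbp2Δ and 4 bp in wild type. GLT1 had this peak in both strains, over its first 436 bp in dbp2Δ and 336 bp in wild type, and in dbp2Δ only a second peak, of 550 bp, had 208 bp inside its 3′ end and reached the opposite-strand neighbour PAR32.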

How the data were processed

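Rpb3-3XFLAG ChIP-seq was done on 3 immunoprecipitates and 3 inputs of each of 2 strains. Tools listed in the submitters' processing notes are MACS2 2.1.2, Bowtie2 2.3.3.1 and Trimmomatic 0.36, with genome build R64. Trimming and alignment settings are not known here. Per the file headers, the authors pooled the 3 libraries of a kind and called peaks once per strain in paired-end mode at a q-value of 0.05, with 1 duplicate kept per position and local background over 1000 and 10000 bp. The deposited pileup is the signal at the summit, and it was not used. The deposited −log10 p-value and −log10 q-value were not used. The fold enrichment, a ratio to the local background given by the authors, served only to describe peaks and to rank or filter them. In the alternative with 2-fold peaks, the same limit was applied to each list before the strains were compared.

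Genes, lengths and coordinates came from a RefSeq table of R64, and strand from the systematic name. The percent covered, segments and arrangements were computed with Python 3.11.15, numpy 2.4.6 and pandas 2.3.3, after the script was tested on made-up intervals with known answers. A gene was touched at an overlap of at least 1 bp. The 12 function lists were written from general knowledge and hold 135 of the 240 genes. Members and lists were chosen with earlier results of these data known. Named genes are the 5 longest, the 10 most covered in each list, the 10 with the largest difference in each direction, up to 12 with separate peaks and up to 4 of each function list; others were named after their values were seen, as examples. The alternatives tried are the fold, length and overlap limits, joined peaks, the definitions of ends and continuity, and leaving out copies.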

Additional observations from a re-analysis of the deposited data

How the results depend on the processing

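No paired analysis was possible because peaks were called on pooled libraries, and for the same reason no replicate could be left out. Values follow as dbp2Δ, then wild type. Keeping peaks with a summit in the gene gave a mean of 10.7% and 10.1% covered, 9.93% and 9.74% in the first segment, 10.7% and 9.99% in segments 2 to 9, 11.03% and 10.8% in the last segment, 9 and 11 genes with separate peaks, 74 and 72 peaks in all, and 25 genes with one end only in dbp2Δ. Retrotransposons are not annotated in the table, so the planned setting without them left out the 46 unnamed and 8 YRF1 genes. It gave a mean of 10.8% and 8.21%, 10.8% and 10.5% in the first segment, 9.85% and 7.29% in segments 2 to 9, 18.0% and 13.3% in the last segment, and 18 and 14 genes over 50%. Genes of at least 5000 bp had a mean of 33.1% and 29.5%. Genes of at least 3000 bp gave 77 and 63 genes over 50%, and any overlap 101 and 84. Ends of 5 segments gave 12 and 16 genes with separate peaks. With peaks of at least 2-fold enrichment the last segment had 18.8% and 15.7%, the mean difference was 1.60 points, 6 genes (2 of the 10 before) were higher by at least 25 points and 1 lower, and XRN1 was reversed at 7.24 points; the cause was not tested. Joining gaps of up to 300 bp left continuous genes at 32 and 25 and separate genes at 20 and 27. In all, 56 of the recomputed main values kept within the limits set and 36 moved. Depth limits what a list can hold: a gene without a peak may carry Pol II below the caller's limit.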
